A study of Mus musculus with 6 samples.

Results

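Axon guidance ligands and receptors are secreted or membrane-bound proteins that attract or repel growing axons and that also position dendrites, synapses and blood vessels. The genes examined here were those of the semaphorins of classes 3 to 7 with their plexin and neuropilin receptors, the ephrins with the Eph receptor tyrosine kinases, the Slits with the Robo receptors, and the netrins with Dcc, neogenin and the Unc5 receptors. They were chosen by gene symbol in the array annotation, and comprised 66 genes with 172 probes, of 19057 genes and 34885 probes with a single symbol on the array. Unc50 and Unc5cl, picked up by the shared prefix, are not netrin receptors. Ntn1 was not analysed here. Of the 66 genes, 53 passed the filter on dim probes and were tested, 26 ligands and 27 receptors, each on its brightest probe.

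Central retina of rd1/rd1 mice was compared between 2 months of age (n = 3) and 8 months of age (n = 3), with no treatment. Mice with rd1 lack working Pde6b, a rod phosphodiesterase subunit, and lose rods early and cones later. Both ages carry the mutation, so that the comparison is of later against earlier degeneration without a seeing control. Retina punches of 1.5 mm were pooled, 3 to 6 to a sample, and the labels give neither the animals per pool, nor whether pools shared one, nor their sex. The question is whether guidance genes differ in level between these stages of photoreceptor loss, when the inner retina may be remodelled. Remodelling itself was not measured.

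In the developing eye, Slits and netrins steer ganglion cell axons towards and out of the optic nerve head, opposing gradients of ephrins and Eph receptors set where those axons end in the brain, and transmembrane semaphorins with plexin A receptors confine neurites to their layers of the inner plexiform layer. Class 3 semaphorins are secreted and act through neuropilins, which hold the ligand, and plexins, which signal. Several members, such as Nrp1, Robo4, Unc5b and the pair Efnb2 and Ephb4, are also known from blood vessels.

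The arrays were single-colour Illumina bead arrays, and their deposited values are on a log2 scale from 6.98 to 14.5 with an array median of 7.19, close to which differences are compressed. Precision is limited by having 3 arrays per age, and a p-value reflects only how these pools vary. Markers of inner retinal neurons and glia were present: all 8 bipolar, all 10 amacrine and all 7 Müller glia markers with a probe passed the filter. On the log2 scale, the bipolar list mean was 11.74 to 11.81 at 2 months and 11.66 to 11.74 at 8 months, with 7 of 8 differences negative, and the amacrine mean was 10.56 to 10.62 and 10.69 to 10.79, with 9 of 10 positive. The Müller glia mean was 11.49 to 11.59 and 11.46 to 11.61, that of ganglion cells (7 of 8 tested) 10.51 to 10.58 and 10.45 to 10.78, and that of horizontal cells (4 of 5 tested) 10.05 to 10.08 and 9.94 to 9.99. The mean level of 9 cone markers was 9.81 to 10.17 at 2 months and 8.52 to 9.13 at 8 months, and that of 6 rod markers was 8.13 to 8.43 and 7.68 to 7.90, while Pde6b, Gngt1 and Opn1sw stayed below the filter. Of the rod markers 3 had positive and 3 negative differences, with a median of −0.08, and Sag (−1.81) and Pde6g (−1.35) had the largest. Of 4 red blood cell markers with a probe 2 were tested, with a median difference of −1.59 and no overlap. Hbb-bs was at 10.87 to 12.38 at 2 months and 9.72 to 9.83 at 8 months, and Hba-a1 at 10.36 to 11.62 and at most 9.38, both highest in 2 month replicate 2. 2 month replicate 2 was highest in the mean of pigment epithelium and of skeletal muscle markers and in the keratins Krt5, Krt14 and Krt15 of surface epithelium. Without it 0 members were called, as with all 6 samples. Only 8 of 12046 genes were called in that smaller fit, so the 0 cannot show what the sample contributed. The skeletal muscle mean was also raised in 2 month replicate 1, at 8.49 beside 9.17 in replicate 2 and 7.90 to 8.04 in the rest. In bulk tissue, fewer cells of a type and less RNA per cell cannot be told apart. The Y-linked gene Eif2s3y was at 7.79 and 8.27 in 2 month replicates 1 and 2 and at 7.10 to 7.18 in the other samples, and Xist was at 9.40 and 8.73 in those 2 and at 10.5 to 11.1 in the others. By these 2 sex-linked genes the sexes were not balanced between the ages, so that age and sex cannot be fully told apart. They and several of the tissue markers were uneven between the ages, and their part in the results was not tested.

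No axon guidance gene passed the test between the ages. By limma, with Benjamini-Hochberg adjustment over all 12046 tested genes and a threshold of 0.05, 0 members were higher and 0 lower at 8 months, beside 19 higher genes (0.158%) and 8 lower genes (0.0664%) among all genes tested. At an unadjusted p below 0.05 there were 5 of 53 members, 3 higher and 2 lower, or 9.43%, beside 10.4% of all tested genes (5.1% higher and 5.34% lower). The values of the ages did not overlap for 7 members, or 13.2%, beside 15% of all tested genes. Both shares are close to those of all genes.

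The differences were also small. Over the 53 genes they ran from −0.21 for Sema4g to 0.29 for Sema4a on the log2 scale, with a median of 0.02, beside a median of 0.00048 over all tested genes. Of the members, 31 had positive and 22 negative differences, beside 6046 and 6000 of all tested genes. The median absolute difference was 0.071 for the members and 0.056 for all tested genes. The 95% interval of the difference lay within 0.5 on the log2 scale, a 1.41-fold difference if that scale is a plain log2, for 51 of 53 members, beside 95.5% of all tested genes. It lay within 0.25 for 29 members, or 54.7%, beside 60.4% of all tested genes. The interval reached furthest for Sema4g, from −0.54 to 0.11. Whether the deposited scale is a plain log2 or a variance-stabilised one is not given in the sources used here. The folds printed assume a plain log2, and on a variance-stabilised scale they would understate the differences of dim genes. The smallest unadjusted p among the members was 0.00964, whereas the 27 genes that passed had p-values up to 0.000112.

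**Figure D1:**
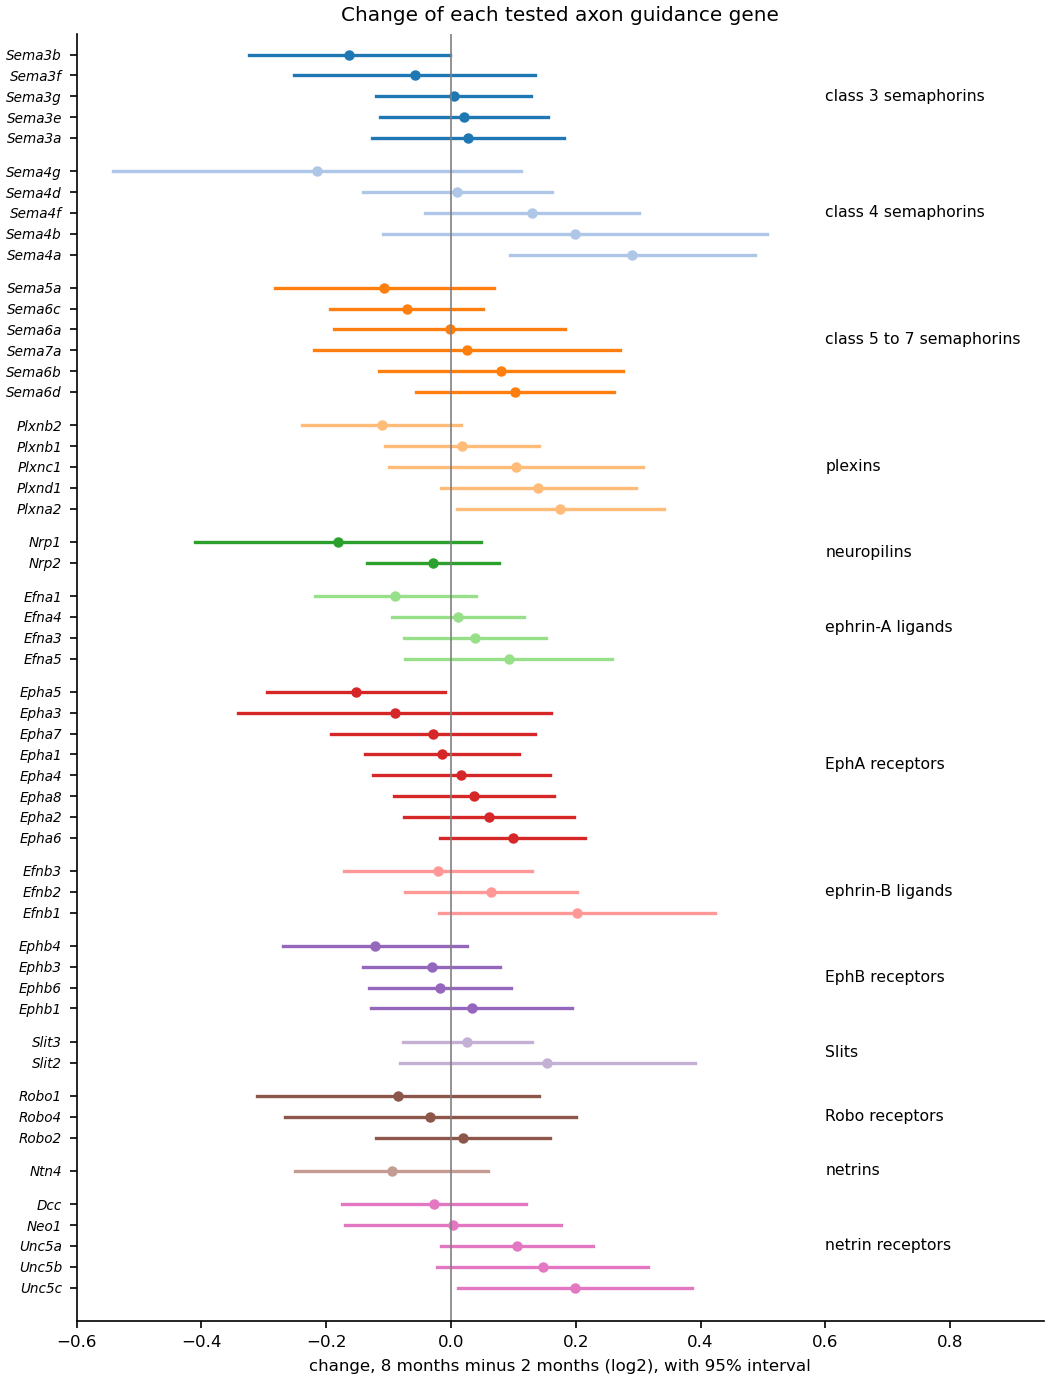
Difference between 8 and 2 months on the log2 scale for each of the 53 tested axon guidance genes (points), with limma's 95% interval (lines), grouped and coloured by family. Most intervals cross 0, and those of Sema4g and Sema4b reach beyond 0.5.

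**Figure D2:**
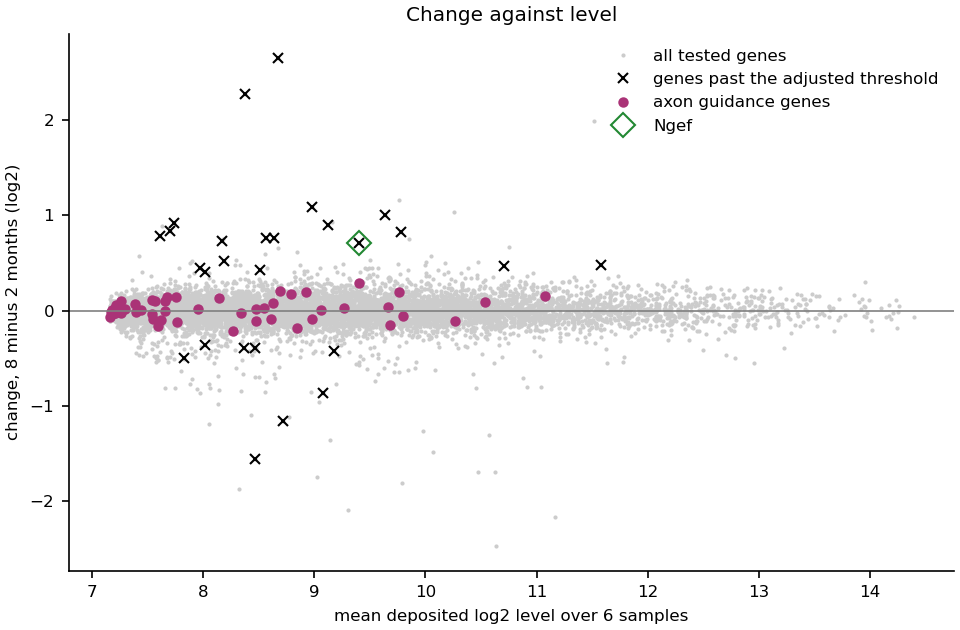
Difference between the ages (log2, vertical axis) against the mean level over 6 samples (log2, horizontal axis) for all 12046 tested genes (grey), the 27 that passed the adjusted threshold (crosses), the 53 axon guidance genes (purple) and Ngef (diamond). The guidance genes run from −0.21 to 0.29 and Ngef is at 0.71, whereas all tested genes run from −2.47 to 2.64.

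Semaphorins of class 4 are membrane-bound ligands, several of which bind plexin B receptors. Sema4a, whose loss causes photoreceptor degeneration in mice, was at 9.26, 9.22 and 9.29 on the log2 scale in 2 month replicates 1, 2 and 3 and at 9.68, 9.36 and 9.60 in 8 month replicates 1, 2 and 3. All 8 month samples were above all 2 month samples, and 8 month replicate 2 was the nearest to the younger group. The difference was 0.29 (SE 0.0837, 95% interval 0.095 to 0.49), a 1.22-fold higher level at 8 months, and its adjusted p was 0.279 by limma. It was the smallest adjusted p of the family and rested on the only probe of the gene. Sema4b was at 9.77, 9.52 and 9.68 at 2 months and at 9.62, 9.81 and 10.14 at 8 months, where replicate 3 was highest and the ages overlapped (difference 0.20, SE 0.131). Leaving out 8 month replicate 3 gave 0.06, and leaving out 8 month replicate 1 gave 0.32. Sema4f, at 8.08 ± 0.122 (SD, n = 3) and 8.21 ± 0.0662, also overlapped. Sema4g was at 8.21, 8.68 and 8.23 at 2 months and at 8.05, 8.09 and 8.34 at 8 months. Its 2 month replicate 2 stood above the other 5 samples, and without it the difference went from −0.21 to −0.06. Sema4g was singled out after its values were seen. The fifth tested member, Sema4d, a ligand of Plxnb1, differed by 0.01, and Sema4c stayed below the filter. The family's median difference was 0.13, and 4 of 5 tested members were positive.

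Among the secreted semaphorins of class 3, 5 of 7 genes were tested, with a median difference of 0.0043. Sema3b was at 7.68, 7.71 and 7.62 at 2 months and at 7.54, 7.60 and 7.38 at 8 months. All 8 month samples lay below all 2 month samples, with replicate 3 lowest. The difference was −0.16 (SE 0.0686, 95% interval −0.32 to −0.0022, limma adjusted p = 0.471), and the gene's other 3 kept probes had differences of 0.09, 0.0068 and 0.02, of the opposite sign. Sema3f, which acts through Nrp2, was at 9.68 to 9.94 at 2 months and at 9.66 to 9.85 at 8 months. The ranges of the ages nearly coincide, and the difference was −0.06 (SE 0.0823). Sema3a, the repellent that acts through Nrp1, differed by 0.03, Sema3e, which binds Plxnd1 directly, by 0.02, and Sema3g, near background on its array, by 0.0043. Sema3c and Sema3d did not pass the filter.

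The transmembrane semaphorins of classes 5 and 6 and the lipid-anchored Sema7a were all tested, 6 of 6, with a median difference of 0.01 and equal numbers of either sign. Sema5a, which restrains neurites in the inner retina of mice, was at 10.27, 10.21 and 10.47 at 2 months and at 10.15, 10.22 and 10.25 at 8 months, and the ages overlapped (difference −0.11, SE 0.0750). Its 3 kept probes had differences of −0.18 to −0.03, all negative. Sema6d was at 7.51 ± 0.0702 at 2 months and 7.61 ± 0.102 at 8 months (difference 0.10, SE 0.0677, adjusted p = 0.7 by limma). The remaining members lay between −0.07 for Sema6c and 0.08 for Sema6b, with Sema6a, a ligand of plexin A receptors in retinal layering, at −0.0024.

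**Figure D3:**
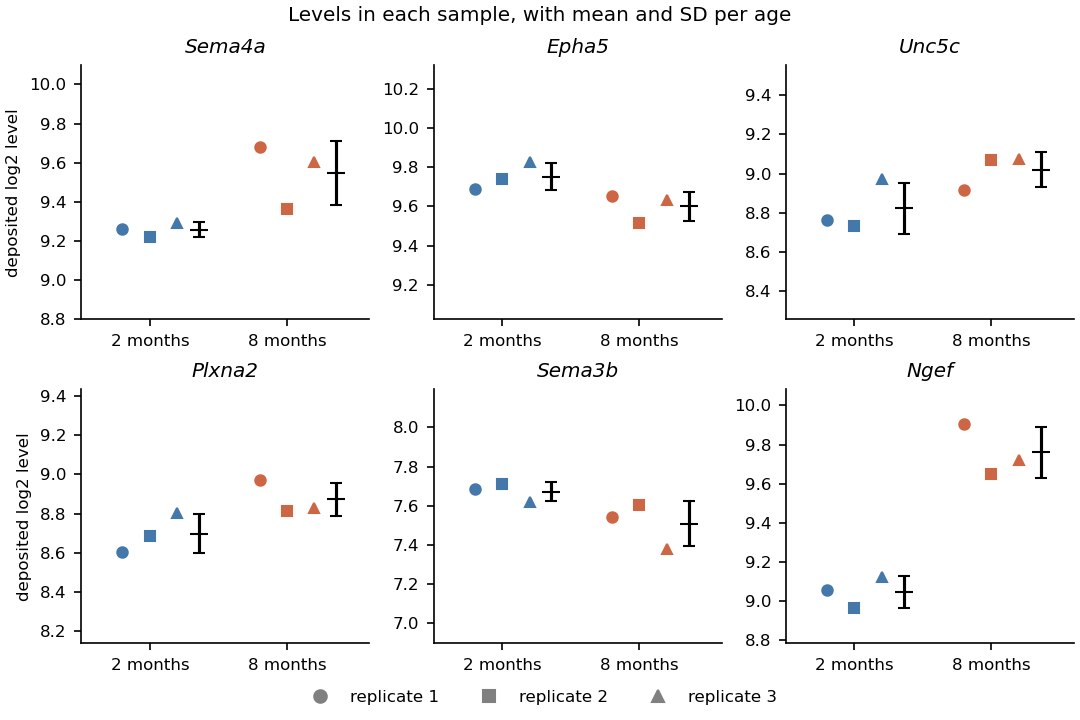
Deposited log2 level (vertical axis) in each of 3 samples at 2 months (blue) and 3 at 8 months (orange) for the 5 members with an unadjusted p below 0.05 and for Ngef, with the mean and SD of each age in black. All axes span the same width in log2 units, so that the gap of 0.71 in Ngef can be set beside that of 0.29 in Sema4a.

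Of 9 plexins, the signalling receptors of semaphorins, 5 were tested, with a median difference of 0.10. Plxna2, a receptor of Sema6a, was at 8.60, 8.69 and 8.80 at 2 months and at 8.97, 8.82 and 8.83 at 8 months. The ages did not overlap, but the gap between 2 month replicate 3 and 8 month replicate 2 was far smaller than the spread within either age. The difference was 0.18 (SE 0.0708, 95% interval 0.009 to 0.34, limma adjusted p = 0.447), 1.13-fold. Plxnd1, the receptor of Sema3e, was at 7.76, 7.66 and 7.63 at 2 months and at 7.89, 7.87 and 7.71 at 8 months, so that 8 month replicate 3 fell within the range of the younger samples (difference 0.14, SE 0.0667). Plxnb2, chosen after its values were seen because its ages did not overlap, was at 8.47 to 8.61 at 2 months and at 8.38 to 8.46 at 8 months (difference −0.11, SE 0.0544). Plxnb1 and Plxnc1, the receptors of Sema4d and Sema7a, differed by 0.02 and 0.10. Plxna1, Plxna3, Plxna4 and Plxnb3 stayed below the filter.

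The neuropilins are the ligand-binding partners of plexin A receptors. Nrp1, which also binds vascular endothelial growth factor, was at 8.97, 9.10 and 8.75 at 2 months and at 8.66, 8.74 and 8.87 at 8 months. The 2 month samples spread most, with replicate 2 highest, and the ages overlapped. The difference was −0.18 (SE 0.0976, 95% interval −0.41 to 0.05, limma adjusted p = 0.622), negative at all 3 kept probes, from −0.18 to −0.07. Nrp2 was near the array median, at 7.22 ± 0.0308 and 7.19 ± 0.0180, where little can be read from it.

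Ephrin-A ligands are anchored to the membrane by a lipid and bind EphA receptors. Efna5, which forms one of the gradients that sort ganglion cell axons in their brain targets, was at 10.48, 10.45 and 10.55 at 2 months and at 10.63, 10.45 and 10.68 at 8 months. The ages overlapped, with a difference of 0.09 (SE 0.0708). Efna1, at 7.59 ± 0.0545 and 7.51 ± 0.0611, differed by −0.09 (SE 0.0550), and Efna3 and Efna4 by 0.04 and 0.01. Efna2 stayed below the filter, and the median over the 4 tested was 0.02.

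Among the receptors, Epha5, which binds ephrin-A ligands on retinal axons, was at 9.69, 9.74 and 9.83 at 2 months and at 9.65, 9.52 and 9.63 at 8 months. All samples of the older age lay below all samples of the younger, though 8 month replicate 1 and 2 month replicate 1 almost touched. The difference was −0.15 (SE 0.0609, 95% interval −0.30 to −0.0095, limma adjusted p = 0.438) at the tested probe and 0.04 and −0.0087 at the gene's other 2 kept probes. Epha6 was at 7.16 to 7.23 at 2 months and at 7.27 to 7.36 at 8 months, without overlap but close to the array median (difference 0.10, SE 0.0495, adjusted p = 0.576). Of the 8 EphA receptors tested, 4 were positive and 4 negative, with a median of 0.0014, and Epha10 stayed below the filter.

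Ephrin-B ligands span the membrane and can signal back into the cell that bears them. Efnb1 was at 8.43, 8.62 and 8.72 at 2 months and at 8.85, 8.89 and 8.64 at 8 months. Only 8 month replicate 3 fell within the range of the younger samples, and the difference was 0.20 (SE 0.0943, 95% interval −0.019 to 0.42, limma adjusted p = 0.537). Efnb2, the vascular and neural partner of Ephb4, was at 7.35 ± 0.0599 and 7.41 ± 0.0741, and Efnb3 differed by −0.02. Ephb1, which directs ganglion cell axons that stay on the same side of the brain, was at 9.62, 9.54 and 9.79 at 2 months and at 9.68 in all 3 samples at 8 months, a difference of 0.03 (SE 0.0686, 95% interval −0.13 to 0.19). Ephb4 was at 7.84, 7.89 and 7.74 at 2 months and at 7.63, 7.78 and 7.69 at 8 months, with overlap (difference −0.12, SE 0.0631). Ephb3 and Ephb6 differed by −0.03 and −0.02, so that 3 of 4 EphB receptors were negative and 2 of 3 ephrin-B ligands positive.

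Slits are secreted repellents read by Robo receptors. Slit2 was far above background, at 10.89, 10.97 and 11.12 at 2 months and at 10.97, 11.15 and 11.33 at 8 months. The ages overlapped, and 8 month replicate 3 was highest. The difference was 0.15 (SE 0.101, 95% interval −0.082 to 0.39, limma adjusted p = 0.695), and the other 4 kept probes had differences of −0.06 to 0.09. It came to 0.07 if 8 month replicate 3 was omitted and to 0.24 if 8 month replicate 1 was. Slit3 was at background, with means of 7.19 and 7.21, and Slit1 stayed below the filter. Robo1 was at 8.86, 9.23 and 8.97 at 2 months and at 8.93, 8.87 and 9.01 at 8 months, with 2 month replicate 2 apart from the rest and a difference of −0.08 (SE 0.0966). Robo2, which with Robo1 keeps ganglion cell axons on course, differed by 0.02. Robo4, an endothelial receptor, was at 7.34 to 7.74 at 2 months and at 7.45 to 7.58 at 8 months, entirely within the younger range.

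Netrins attract axons through Dcc and repel them where Unc5 receptors take part. Unc5c was at 8.76, 8.73 and 8.97 at 2 months and at 8.92, 9.07 and 9.08 at 8 months, and only 2 month replicate 3 reached into the older range. The difference was 0.20 (SE 0.0800, 95% interval 0.011 to 0.39, limma adjusted p = 0.447), 1.15-fold, with the same sign at all 3 kept probes, from 0.05 to 0.20. Unc5a, at 7.46 to 7.52 at 2 months and at 7.54 to 7.66 at 8 months, did not overlap (difference 0.11, SE 0.0517, adjusted p = 0.567). Unc5b differed by 0.15, Neo1, the receptor neogenin, by 0.0033, and Dcc, near the array median, by −0.03. The 5 netrin receptors tested had a median difference of 0.11, with 4 positive, and Unc5d stayed below the filter. Ntn4, a netrin of basement membranes, was at 7.67, 7.75 and 7.58 at 2 months and at 7.53, 7.67 and 7.52 at 8 months (difference −0.09, SE 0.0659), and its second kept probe had a difference of 0.11. The ages overlapped at the tested probe.

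Probes of one gene often disagreed in sign. Of the 53 tested genes, 22 had more than 1 kept probe, and in 14 of these the probes had differences of both signs, as in Sema3b, Epha5, Slit2 and Ntn4. In the other 8, among them Nrp1, Unc5c and Ephb4, all kept probes had the same sign. The remaining 31 genes rested on a single kept probe. Among the 14 with both signs, some opposing probes were dim, near the array median of 7.19, with small differences. Their mean levels were 7.24 beside 10.54 at the tested probe in Efna5 (difference −0.01) and 7.24 beside 9.06 in Neo1 (−0.02). In Slit2 they were at most 7.498 beside 11.07. In Sema3b and Epha5 opposing probes reached 7.53 beside 7.59 and 8.01 beside 9.68. Whether brightness accounts for the opposite signs was not tested. The array annotation does not say which transcript forms a probe detects.

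**Figure D4:**
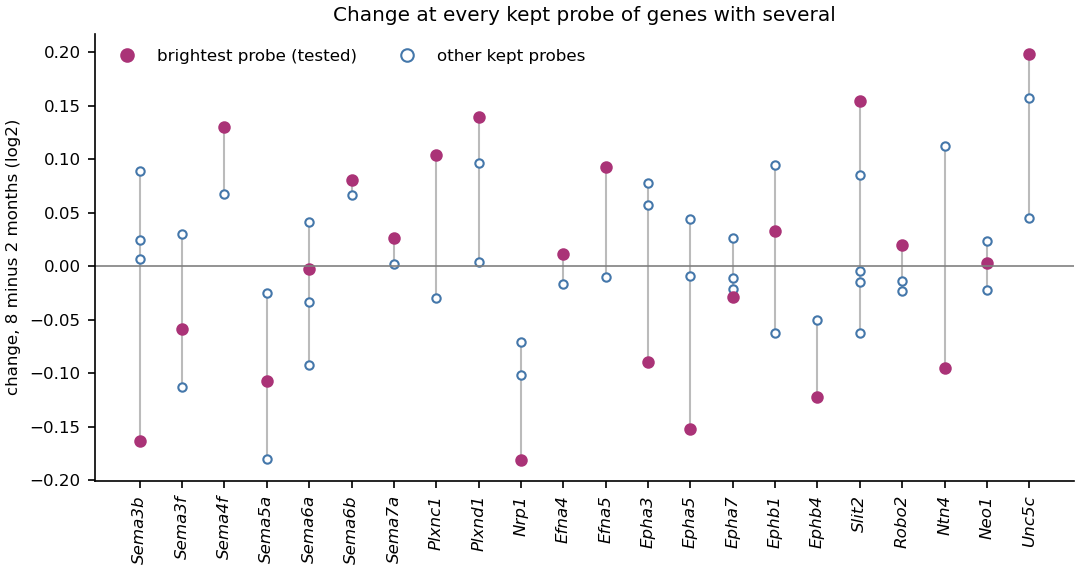
Difference between 8 and 2 months (log2, vertical axis) at every kept probe of the 22 axon guidance genes that had more than 1. Filled points are the brightest probe of each gene, which was tested, and open points the others; in 14 genes they lie on both sides of 0.

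Brightness limited what could be measured. The 13 genes below the filter had their brightest probe at means of 7.09 to 7.15, at or below the array median, and 26 of the tested genes passed a stricter filter at the 75th percentile of the array. The other 27 had mean levels from 7.16 for Sema6c to 7.67 for Unc5b. Towards the array median differences are compressed, and a narrow interval there does not exclude a larger change in RNA. No member passed the filter through samples of 1 age alone, and 40 were above the median on all 6 arrays.

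The highest values of the member genes were unevenly distributed over the samples. The highest value fell in 2 month replicate 2 for 18 of 53 genes, or 34.0%, beside 19.3% of all tested genes, and in 2 month replicate 1 for 3 genes, or 5.66%, beside 15.8%. The lowest value fell in 2 month replicate 2 for 10 genes, or 18.9%, beside 19.1% of all tested genes. The median deviation of the 53 genes from their own means was 0.0061 in that sample, beside −0.023 to 0.016 in the others. The 18 were spread over 10 families and included Nrp1, Robo1, Sema3f, Sema4g, Epha3 and Ephb4. Others of the 18, such as Nrp2, Epha1, Ephb3 and Dcc, were near the array median. 2 month replicate 2 was highest for the mean level of the pigment epithelium list (10 of 10 markers tested), at 9.91 beside 9.15 and 9.36 in the other 2 month samples and 8.62 to 9.23 at 8 months. It was also highest for skeletal muscle (7 of 10), at 9.17 beside 8.49 in 2 month replicate 1 and 7.90 to 8.04 in the rest. The same held for pericytes and smooth muscle (7 of 8), at 8.04 beside 7.61 to 7.97, and for surface epithelium of the eye (4 of 4), at 9.11 beside 7.33 to 8.40. In the surface epithelium list Krt5, Krt14 and Krt15 were highest in 2 month replicate 2. Krt12, the keratin of the cornea, was at 7.68 there and highest in 2 month replicate 3, at 10.71, and 8 month replicate 2, at 10.36. Ckm, Tnnt3 and Myh4, defining muscle markers, stayed below the filter, as did Tagln of smooth muscle. Endothelial markers (10 of 10) were at 8.09 to 8.34 at 2 months and at 8.20 to 8.31 at 8 months. The part of these tissues in the members' levels was not tested. Without 2 month replicate 2 the difference of Nrp1 was −0.10, that of Ephb4 −0.09, that of Robo1 0.02 and that of Epha3, chosen after its values were seen, 0.03. Each of these genes had its highest value in that sample. Leaving it out therefore had to raise the difference, so the direction of these shifts was fixed beforehand.

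**Figure D5:**
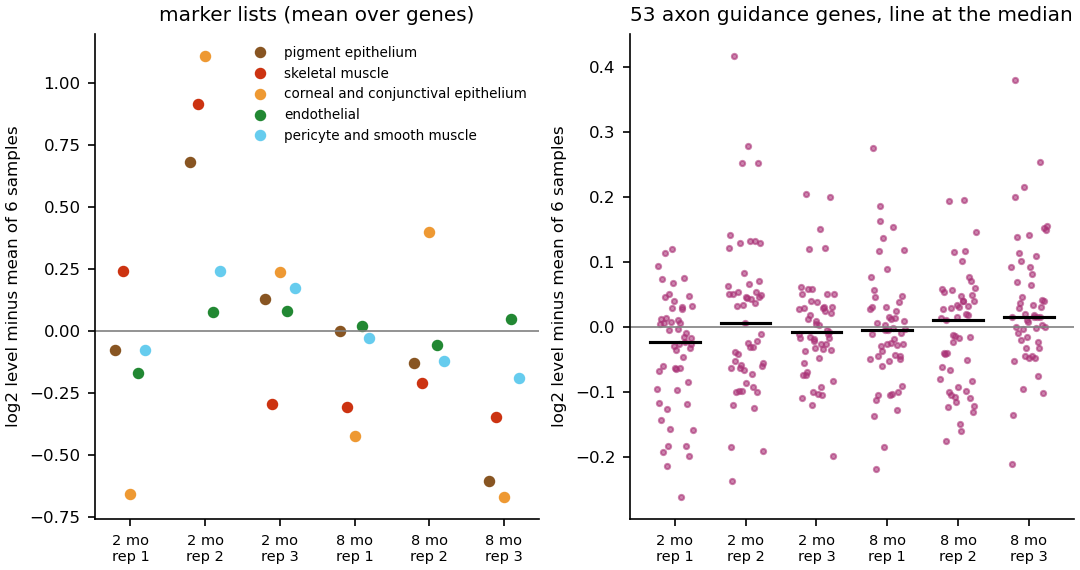
Left, mean log2 level of 5 marker lists in each sample, minus the list's mean over the 6 samples. Right, log2 level of each of the 53 axon guidance genes minus its own mean over the 6 samples, with the median as a black line. 2 month replicate 2 has the highest list mean for pigment epithelium, muscle and surface epithelium, though single markers of a list can peak elsewhere. It holds the highest value of 18 of the 53 guidance genes and the lowest of 10. The skeletal muscle mean is also raised in 2 month replicate 1.

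Genes that relay guidance signals were taken as a separate list of 86, of which 67 were tested, comprising CRMP and Mical proteins, regulators of small GTPases, kinases, actin regulators, and further cues and coreceptors. Of these 1 rose and 0 fell, beside 0.158% higher and 0.0664% lower of all tested genes. Ngef, which codes for ephexin-1, a guanine nucleotide exchange factor bound to EphA receptors that links them to growth cone collapse, was at 9.06, 8.96 and 9.12 at 2 months and at 9.90, 9.65 and 9.72 at 8 months. Every 8 month sample was above every 2 month sample by more than the spread within an age. It rose by 0.71 on the log2 scale (SE 0.0785, 95% interval 0.53 to 0.90, limma adjusted p = 0.0373), 1.64-fold, and its second probe had a difference of 0.41. The call ended when any sample other than 2 month replicate 3 was left out (adjusted p = 0.0559 to 0.144) and with no filter on dim probes (adjusted p = 0.0675), while the difference stayed between 0.64 and 0.77.

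No other gene of the list passed. The median difference over the 67 was 0.02, with 39 positive and 28 negative, beside 6046 and 6000 of all tested genes. Of the 67, 10 genes, or 14.9%, had an unadjusted p below 0.05 by limma, 6 higher and 4 lower, beside 10.4% of all tested genes. After Ngef the smallest p-values among positive differences belonged to Rras, a small GTPase that plexins switch off, at 9.50 ± 0.0201 and 9.84 ± 0.102 (difference 0.34, SE 0.0616, limma adjusted p = 0.120), and Dag1, dystroglycan, which binds Slits in the extracellular matrix, with a difference of 0.26 (SE 0.0930) at one probe and −0.0023 at the other. Among negative differences they belonged to Ntng1, netrin-G1, a lipid-anchored relative of the netrins that does not use Dcc, at 10.9 ± 0.0434 and 10.7 ± 0.0635 (difference −0.24, SE 0.0537, limma adjusted p = 0.177), and Dpysl3, the cytosolic protein CRMP4, at 8.90 ± 0.194 and 8.46 ± 0.131 (difference −0.45, SE 0.109, limma adjusted p = 0.223). Kept probes of Ntng1 ran from −0.24 to 0.06.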

How the data were processed

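Biotinylated cRNA from column-purified total RNA was hybridised to Illumina bead arrays, per the labels' protocols. The authors deposited 1 log2 value per probe and sample, 45281 probes in 6 samples. The log2 scale is read from the range, and the sorted columns differ by at most 0.00307 at any rank, as after quantile normalization. Software and background correction: not given in the sources used here. Signal over background, not depth, sets the precision.

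Groups and replicate numbers came from the sample titles, which number the 2 month samples 1, 2 and 3, where the descriptions have 1, 1 and 2. Probes were named through GEO's array annotation (34885 with 1 symbol, 18 with several, 10378 with none), and all 66 member symbols were the same in RefSeq gene records. Probes above the 50th percentile of at least 3 arrays were kept, and each gene was represented by its brightest kept probe, which left 12046 genes. Differences are 8 months minus 2 months by limma 3.58.1 under R 4.3.3 (eBayes after lmFit, two-sided, 4 residual and 3.31 prior degrees of freedom), tested on simulated data. No covariate or block was used. Members and lists were chosen with earlier results of these data known. Named are, per family, the brightest member and the 2 with the smallest p, any member called under any setting, and of the signalling list called genes and the 2 smallest p in each direction. Further members are given by their differences. Alternatives were other normalizations, filters, probe summaries and priors, the replicate number as a block, and leaving out each sample.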

Additional observations from a re-analysis of the deposited data

How the results depend on the processing

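Under none of the alternatives was an axon guidance gene called higher or lower (limma, 53 genes tested, 66 with no filter and 26 with the stricter one), and the smallest adjusted p of any member was 0.125, for Sema4a without 8 month replicate 2. At an unadjusted p below 0.05, leaving out 1 sample gave 2 to 4 higher and 0 to 3 lower members. The shares of all tested genes under those fits are not given here, so these counts show nothing particular to the members. The median difference of the 53 genes was −0.00031 to 0.0225 when 1 sample was left out. Among families, leaving out 1 sample gave medians of 0.0577 to 0.157 for class 4 semaphorins, 0.0235 to 0.117 for plexins, −0.14 to 0.0204 for Robo receptors, 0.0451 to 0.128 for Slits, and medians of either sign for class 3 semaphorins (−0.0130 to 0.0186), classes 5 to 7 (−0.0275 to 0.0309) and EphA receptors (−0.0179 to 0.0307). The plexin median was 0.0180 with no filter and 0.0375 with the mean of all kept probes. Under the stricter filter, which leaves fewer genes, the median of EphA receptors (n = 3) was −0.0898, and the ephrin-A and ephrin-B values were those of Efna5 alone (0.0925) and Efnb1 alone (0.20). With the mean of all kept probes, Ntn4, the only netrin, changed sign to 0.0090. Leaving out 1 sample changed the sign of 21 of the 53 members at least once, and among the 28 named ones of 4, Ephb1 (−0.0212 to 0.102), Robo1 (−0.165 to 0.0204), Robo4 (−0.14 to 0.059) and Neo1 (−0.0719 to 0.0646). No member was called under any setting, and the cause of each change was not tested. Signalling genes called higher numbered 0 with no filter and 0 to 2 without 1 sample, with Flrt1 beside Ngef without 2 month replicate 3; these counts under alternatives were added after seeing the data. Same-numbered samples of the 2 ages had deviations correlated at 0.0239, 0.139 and 0.160, so the numbers were not taken to pair them, and each 2 month sample correlated best with its own number, a hint from the data only. With the replicate block, 32 genes were called over the array in place of 27, 0 of them members, and the smallest adjusted p among members was 0.241, for Sema4a. Over the whole array, the alternatives called from 2 genes (without 2 month replicate 1) to 104 (eBayes with trend and robust). Of the 53 tested members, 27 did not pass the stricter filter on dim probes, and values near the array median cannot exclude larger changes in RNA.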
